A study of Mus musculus with 2 samples.

Results

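Cluster 42 is one of the 15 groups into which the submitters' cell table divides the monocytes of mouse tumours. Its cells are the entries that the deposited table calls monocytes of cluster 42 and whose barcode holds at least 1000 mouse UMIs (unique molecular identifiers, 1 per captured mRNA molecule) in the library analysed here. That rule gave 117 cells of 2486 monocytes, so the cluster was set against 2369 monocytes of 14 other clusters, within 8716 cells of all types. The lowest member had 1507 UMIs, and the highest of the cluster's entries under the threshold had 27. The cluster has 252 entries in the table; the other 135 belong to libraries that were not analysed here.

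The tumours were MC38, a mouse colon adenocarcinoma line, grown under the skin of mice that carry human Fc gamma receptors, and CD45+ cells were sorted from them on day 4 after treatment. The treated mice received 100 µg of an antibody to mouse GITR, a receptor of T cells, made with a human IgG1 Fc and given in 2 injections 3 days apart. In the words of the deposited table, N297A is an agonist with a null Fc (mice N297A 1 and N297A 2), GA-aFuc an agonist with an enhanced Fc (1 mouse), and GITR/Syn GA-aFuc a non-agonist with an enhanced Fc (1 mouse). Untreated mice (Untreated 1 and Untreated 2) received no antibody, the labels giving PBS as the control, and all 6 mice bore the tumour and the human receptors. Each mouse had its own hashtag, an antibody-bound barcode, and all 6 were read in 1 library. Cluster 42 held 26 and 20 cells of the N297A mice, 14 of the GA-aFuc mouse, 19 of the GITR/Syn GA-aFuc mouse, and 22 and 16 of the Untreated mice. Summed over its cells, a mouse had 89008 to 203459 UMIs.

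Monocytes leave the bone marrow for the blood as classical cells, which in the mouse carry much Ly6C and the chemokine receptor CCR2 and which enter inflamed tissue and tumours. Some classical monocytes turn into non-classical monocytes, which lose Ly6C, need the nuclear receptor NR4A1 and patrol the vessel wall; others settle in tissue and turn on genes of macrophages. Those programmes use largely separate genes, so a single-cell profile shows which of them a group of monocytes carries.

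The clusters were made from the expression of these cells, so every difference between cluster 42 and the other monocytes is a description and carries no p-value. Levels are CPM, counts scaled to 1000000 mouse UMIs, of the summed cells of a mouse, and a difference is the mean over the 6 mice of log2(CPM + 5) in cluster 42 minus that in the other monocytes of the same mouse. A gene is called higher or lower here when that mean difference is at least 1 in size, has the same sign in all 6 mice, and the gene reaches 20 CPM in the group where it is higher. Of 6279 genes that reach 20 CPM, 390 (6.21%) were higher and 461 (7.34%) lower in cluster 42, and the median gene differed by -0.07. Library sizes scaled by the trimmed mean of M values (TMM) shift all differences by -0.21 and give 262 higher and 677 lower genes.

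Among the genes higher in cluster 42 were most of those known from non-classical monocytes. Of a list of 12 such genes 9 were higher and none lower, with a median difference of 2.09, against -0.07 over all genes. The list's summed level was 3475 ± 362 CPM in cluster 42 and 1071 ± 87.0 CPM in the other monocytes (SD, n = 6 mice), and the lowest mouse of cluster 42, at 3105 CPM, lay far above the highest value in the other monocytes, 1238 CPM. Over pooled cells no other monocyte cluster came near the 3552 CPM of cluster 42: the next was cluster 47 at 1362 CPM.

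The highest gene was Ace, which encodes angiotensin-converting enzyme, a peptidase on the cell surface. In cluster 42, Ace had 373.5 and 233.0 CPM in the N297A mice, 258.4 CPM in the GA-aFuc mouse, 301.2 CPM in the GITR/Syn GA-aFuc mouse, and 201.8 and 315.9 CPM in the Untreated mice. The other monocytes of the same mice had 8.5, 7.9, 6.3, 7.8, 7.2 and 4.2 CPM, in the same order. Every mouse thus had far more Ace in cluster 42, with a log2 difference of 4.56 ± 0.38 (SD, n = 6 mice). Treml4, a receptor for dying cells, averaged 182.6 ± 70.6 CPM in cluster 42 and 14.7 ± 3.3 CPM in the other monocytes, a log2 difference of 3.20. Spn, the sialylated surface protein CD43 by which non-classical monocytes are often sorted, averaged 176.3 ± 38.8 CPM in cluster 42 and 11.2 ± 1.8 CPM in the other monocytes (3.46). For both genes each mouse of cluster 42 exceeded 100 CPM, and the groups did not overlap.

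More members of the list were higher by smaller ratios, all but Cd300e of those called here from a higher base. Itgal, the alpha chain of the integrin LFA-1, averaged 538.2 CPM in cluster 42 and 115.1 CPM in the other monocytes (2.17), and Pou2f2, a transcription factor also known from B cells, averaged 472.5 and 112.5 CPM (2.01). Gngt2, a G protein gamma subunit, averaged 857.9 CPM against 310.6 CPM (1.45), and Cd300e, an activating receptor, averaged 27.5 CPM against 6.8 CPM (1.28). Nr4a1 itself averaged 456.8 CPM in cluster 42 and 270.2 CPM in the other monocytes; its difference of 0.70 ± 0.47, positive in 5 of 6 mice, was below the size asked for. Cx3cr1, the fractalkine receptor that is usually high in non-classical monocytes, was at 232.4 CPM in cluster 42 and 213.1 CPM in the other monocytes (0.09) and was not called. Fabp4, a fatty acid carrier, averaged 29.1 CPM against 0.4 CPM but was higher in 4 of 6 mice and so was not called.

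**Figure D1:**
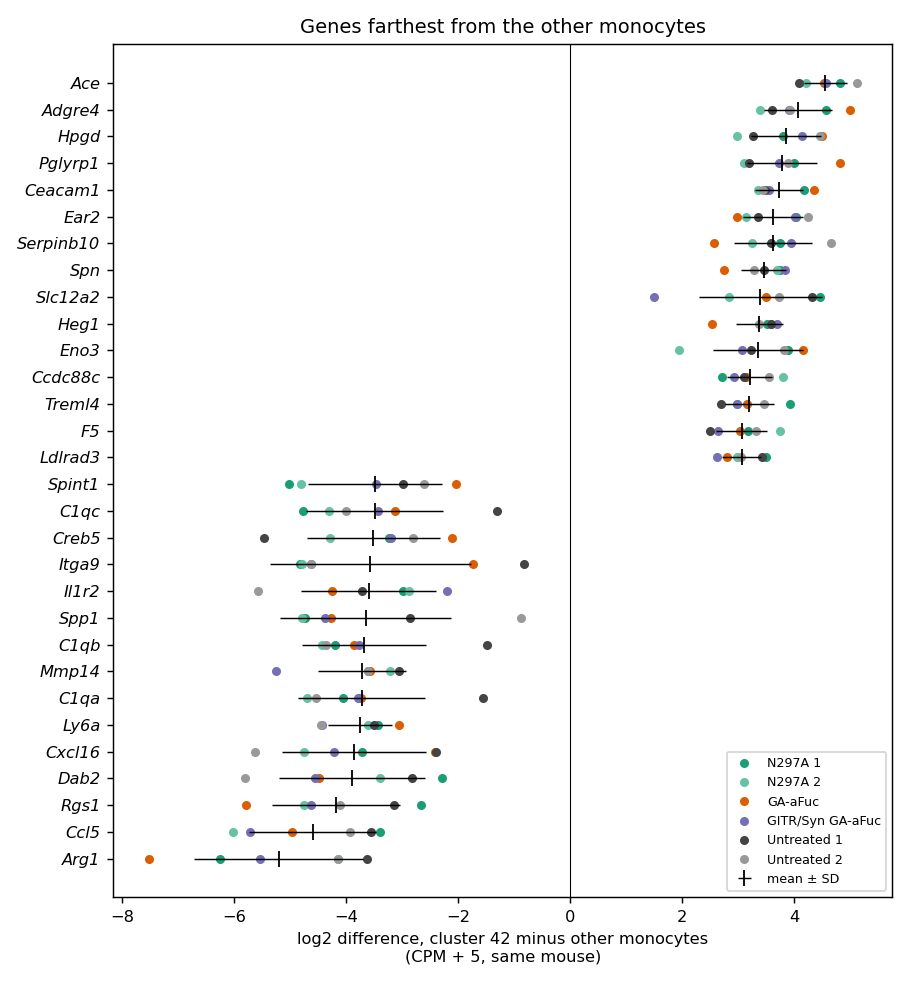
Log2 difference, with 5 CPM added, between cluster 42 and the other monocytes of the same mouse for the 15 highest and 15 lowest genes. Coloured points are the 6 mice and the black marks the mean ± SD; Ace stands at 4.56 at the top, Arg1 at -5.20 at the bottom, and all points lie on 1 side of 0 for each gene.

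The 15 genes with the largest positive differences also included several other surface proteins and enzymes. Of the genes that follow, Ear2 and Eno3 belong to the non-classical list above. Adgre4, an adhesion G protein-coupled receptor of myeloid cells, averaged 168.3 CPM in cluster 42 and 4.9 CPM in the other monocytes (4.07). Ceacam1, an adhesion molecule with inhibitory motifs, averaged 184.6 against 8.8 CPM (3.73), and Hpgd, which inactivates prostaglandins, averaged 149.0 against 4.9 CPM (3.85). Ear2, an eosinophil-associated ribonuclease, averaged 110.3 against 4.0 CPM (3.63), and Pglyrp1, a peptidoglycan-binding protein, averaged 150.6 against 5.8 CPM (3.79). The remaining high genes were Serpinb10, Slc12a2 (a sodium, potassium and chloride cotransporter), Heg1, Eno3 (an enolase of glycolysis), Ccdc88c, F5 (coagulation factor V) and Ldlrad3, with differences of 3.07 to 3.62. Ear2 (2.83) and Serpinb10 (3.07) lost the call with cells thinned to 2000 UMIs. Outside the top 15, Cd36, a scavenger receptor that takes up fatty acids and oxidised lipoprotein, averaged 208.4 against 37.1 CPM (2.32), and Gsr, glutathione reductase, averaged 654.5 ± 83.5 against 103.3 ± 33.0 CPM (2.66).

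Genes of classical monocytes were not low as a group. Of 13 such genes 6 were higher and none lower in cluster 42, with a median of 0.90, and their summed level was 25823 ± 3419 CPM in cluster 42, with mice between 21560 and 30118 CPM. In the other monocytes the sum was 14120 ± 1152 CPM and no mouse exceeded 14941 CPM. Hp, the haemoglobin-binding haptoglobin, averaged 440.1 CPM in cluster 42 and 70.5 CPM in the other monocytes (2.51). Chil3, a chitinase-like secreted protein, averaged 857.9 ± 475 against 270.4 ± 80.6 CPM (1.53 ± 0.66). With cells thinned to 2000 UMIs Chil3 (1.08) was no longer called. S100a4, a calcium-binding protein (1.56), Lyz2, lysozyme (1.38), and F13a1, the coagulation factor XIII A chain (1.10), were also higher. Lyz2 alone made up a large part of the summed level. By mouse it had 8392.5 to 16570.1 CPM in cluster 42 and 3974.0 to 5355.5 CPM in the other monocytes. Plac8 was at 4751 CPM against 2530 CPM, and its difference of 0.90 was under the size asked for.

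The gene by which classical monocytes are named went the other way. Ly6c2, the Ly6C antigen, had 865.0 and 1426.1 CPM in cluster 42 of the N297A mice, 1078.6 CPM in the GA-aFuc mouse, 1528.4 CPM in the GITR/Syn GA-aFuc mouse, and 807.3 and 1660.8 CPM in the Untreated mice. The other monocytes had 2127.4, 2471.1, 1741.2, 2428.9, 1919.9 and 2888.4 CPM in the same order. All 6 mice had less Ly6c2 in cluster 42, and the mean difference of -0.91 ± 0.28 fell just short of the size asked for; it reaches that size with TMM scaling (-1.12) and with cells thinned to 2000 UMIs (-1.09). Ccr2, the chemokine receptor that brings monocytes into tissue, averaged 367 ± 92.7 CPM in cluster 42 and 433 ± 87.2 CPM in the other monocytes. Its difference of -0.25 ± 0.54 was smaller than the spread between mice. Both genes were therefore well detected in the cluster. With cells thinned to 3000 UMIs, Ly6c2 had a UMI in 71.9% of cells of cluster 42, 83.9% of other monocytes and 85.3% of CD8 T cells. Because CD8 T cells had it as often, detection of Ly6c2 cannot test the monocyte label. Ccr2 had a UMI in 57.0% of cells of cluster 42, 63.2% of other monocytes and 14.5% of CD8 T cells, and did not contradict that label.

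**Figure D2:**
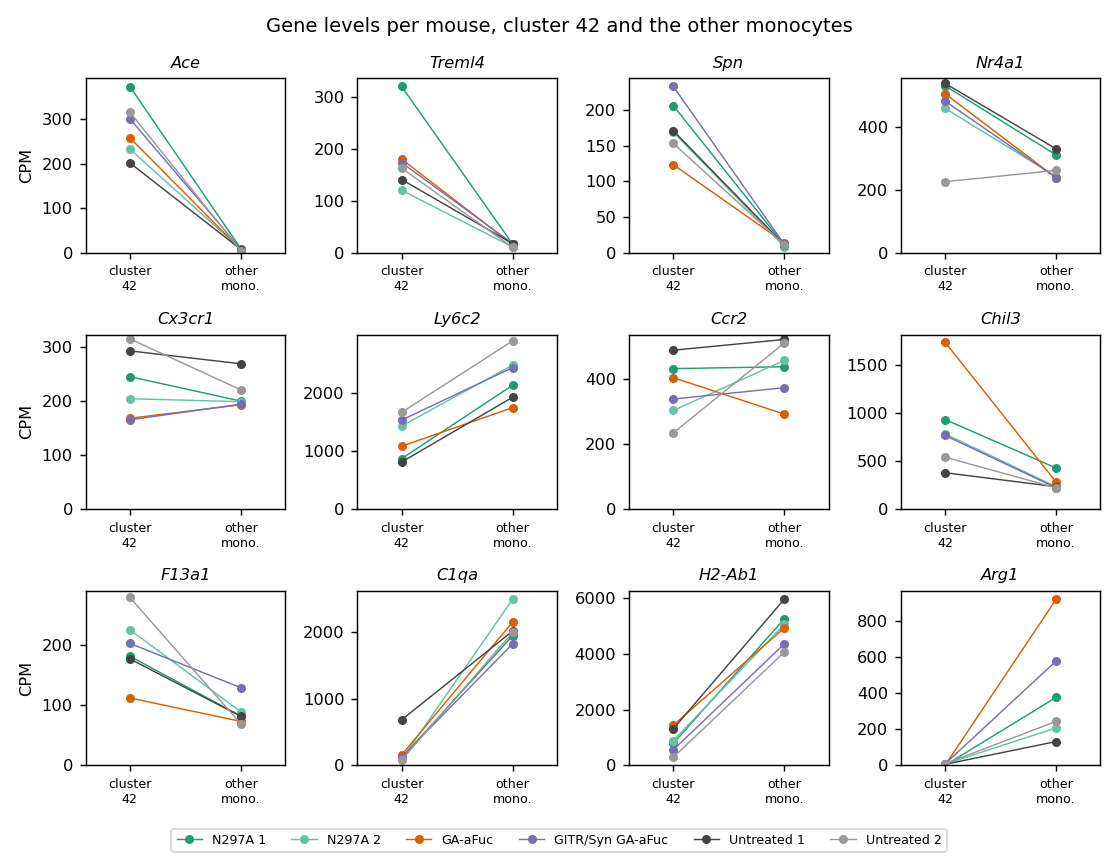
CPM by mouse in cluster 42 (left of each pair) and in the other monocytes (right), for 12 genes, each on its own linear axis from 0; each line joins the 2 values of a mouse. Ace is near 0 in the other monocytes of all 6 mice, Ly6c2 is lower in cluster 42 in all 6, and the lines of Ccr2 cross.

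Genes that monocytes turn on as they become macrophages were low. Of 12 macrophage genes 10 reached 20 CPM, and 9 of those were lower and none higher, with a median of -2.46. The list's summed level was 3183 ± 1902 CPM in cluster 42 (1769 to 6850 CPM) and 12662 ± 1364 CPM in the other monocytes (11228 to 14869 CPM), so no mouse overlapped. C1qa, a chain of complement C1q, had 113.0 and 91.8 CPM in cluster 42 of the N297A mice, 157.3 CPM in the GA-aFuc mouse, 128.0 CPM in the GITR/Syn GA-aFuc mouse, and 685.0 and 81.2 CPM in the Untreated mice. Its mean in the other monocytes was 2075 ± 233 CPM and its log2 difference -3.73 ± 1.13. The high value belongs to Untreated 1, in which 1 cell of 18544 UMIs held 81 C1qa, 86 C1qb and 47 C1qc UMIs, and no Ace. Without that cell C1qa in Untreated 1 would be 214 CPM. Apoe, which carries lipids out of macrophages, averaged 2147 against 5825 CPM (-1.65), and Cd68, a lysosomal protein of all mononuclear phagocytes, was at 262.5 against 310.4 CPM (-0.24) and was not called.

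Antigen presentation by MHC class II showed the same direction, with 7 of 8 genes lower and a median of -2.08. H2-Ab1, a chain of the I-A molecule, had 786.4 and 889.6 CPM in cluster 42 of the N297A mice, 1438.1 CPM in the GA-aFuc mouse, 557.1 CPM in the GITR/Syn GA-aFuc mouse, and 1308.8 and 288.8 CPM in the Untreated mice. The other monocytes had 5246.0, 5044.0, 4925.2, 4350.3, 5954.3 and 4057.6 CPM in the same order. The groups were far apart in every mouse (-2.65). Low H2-Ab1 was not particular to cluster 42. Over pooled cells it had 872.5 CPM in cluster 42, but 181.3 CPM in monocyte cluster 54 and 550.7 CPM in monocyte cluster 27. The remaining monocyte clusters had 1139.6 to 7629 CPM. Cd74, the invariant chain, averaged 2667 against 10263 CPM (-2.01). Ciita, the factor that switches these genes on, averaged 43.7 against 71.2 CPM, and its difference of -0.76 was not called.

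The lowest gene of all was Arg1, the arginase of suppressive tumour myeloid cells. It had 0 and 7.1 CPM in cluster 42 of the N297A mice, 0 CPM in the GA-aFuc mouse, 7.5 CPM in the GITR/Syn GA-aFuc mouse, and 6.1 and 9.0 CPM in the Untreated mice. The other monocytes had 375.8, 207.2, 917.5, 577.0, 131.9 and 243.1 CPM in the same order, a log2 difference of -5.20 ± 1.51 on the scale with 5 CPM added. Arg1 was thus near 0 in cluster 42 of every mouse, while its level in the other monocytes varied widely between mice. Low Arg1 was not particular to cluster 42. Over pooled cells it had 4.8 CPM in cluster 42, 9.0 CPM in monocyte cluster 54 and 23.5 CPM in monocyte cluster 27. The remaining monocyte clusters had 56.3 to 1227 CPM. Of 8 genes of arginine use 5 were lower, with a median of -1.97; they include Slc7a2, an arginine transporter (-2.75), Ass1, which rebuilds arginine from citrulline (54.1 against 224.0 CPM, -2.17), and Odc1, which makes polyamines (-1.77).

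The other genes at the low end belong to several functions. Rgs1, which shortens chemokine signals, averaged 48.0 CPM in cluster 42 and 783.5 CPM in the other monocytes (-4.18), and Dab2, an adaptor of endocytosis, 22.4 against 295.8 CPM (-3.89). Cxcl16, a chemokine that is also a scavenger receptor, averaged 57.6 against 661.6 CPM (-3.86), and Ly6a, the surface antigen Sca-1, which interferon induces, 157.0 against 2047 CPM (-3.75). Spp1, the matrix protein osteopontin of tumour macrophages, averaged 14.3 against 136.7 CPM (-3.65), Il1r2, a decoy receptor for interleukin 1, 21.7 against 260.0 CPM (-3.60), and Creb5, a transcription factor, 58.3 against 530.4 CPM (-3.51). The remaining 6 of the 15 lowest were C1qb (-3.68), C1qc (-3.49), Mmp14 (-3.72), Itga9 (-3.57), an integrin chain, Spint1 (-3.49), a protease inhibitor, and Ccl5.

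Chemokines and cytokines formed a further low group, 10 of 14 genes with a median of -2.61. Ccl5, which draws T cells, averaged 37.7 CPM in cluster 42 and 903.2 CPM in the other monocytes (-4.60). Ccl12 averaged 42.2 against 398.7 CPM (-3.23), Ccl3 12.5 against 116.9 CPM (-2.99), and Nos2, the inducible nitric oxide synthase, 3.9 against 75.5 CPM (-3.23). Il1b, the cytokine interleukin 1 beta, was high in both, at 1852 CPM in cluster 42 and 2408 CPM in the other monocytes (-0.41), and was not called. Of 20 genes of hypoxia and glycolysis 11 were lower and none higher, with a median of -1.27: Bnip3, which acts in mitophagy, was at 11.1 against 107.8 CPM (-2.96), Vegfa, the growth factor of vessels, at 27.8 against 183.6 CPM (-2.65), and Gapdh, a glycolytic enzyme, at 506.8 against 1578 CPM (-1.63). Genes of oxidative phosphorylation (0 of 20 called, median -0.23) and ribosomal proteins (0 of 20, median 0.00) stayed near the median of all genes.

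Interferon genes did not move together. Of 27 type I interferon genes 8 were lower and none higher, with a median of -0.68; Isg15, a ubiquitin-like modifier, averaged 457.4 CPM in cluster 42 and 1362 CPM in the other monocytes (-1.65), and Bst2, which tethers virus particles, 380.2 against 1149 CPM (-1.60). Of 15 genes of the interferon gamma response 4 were higher and 3 lower. Irf1, a transcription factor of that response, averaged 1019 ± 134 against 395.5 ± 28.8 CPM (1.35), and Socs1, which dampens its receptor, 418.9 against 157.9 CPM (1.34). Gbp5 (1.36) and Irgm1 (1.15), both GTPases of host defence, were also higher. Cxcl9, a chemokine for T cells, was at 215.6 against 1174 CPM (-2.53), and Iigp1, another GTPase, at 71.3 against 462.4 CPM (-2.70). Cxcl10, a chemokine that shares a receptor with Cxcl9, was at 1542 CPM in cluster 42 and 1022 CPM in the other monocytes (0.52) and was not called.

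The human Fc gamma receptors, through which an IgG1 antibody acts on myeloid cells, split by receptor. FCGR1A, the high-affinity receptor, averaged 435.3 ± 77.7 CPM in cluster 42 and 123.3 ± 33.8 CPM in the other monocytes, a difference of 1.80. FCGR2A, an activating low-affinity receptor, averaged 184.5 ± 96.3 against 877.0 ± 152.7 CPM (-2.37), and FCGR3A, the receptor of antibody-dependent killing, 67.0 against 199.9 CPM (-1.57). FCGR3B, which in people is a receptor of neutrophils, averaged 1216 ± 358 against 2960 ± 261 CPM (-1.33); with each other cluster given equal weight its difference is -0.90 and is not called. FCGR2B, the inhibitory receptor, averaged 1425 ± 175 against 1071 ± 65.0 CPM; it was higher in 6 of 6 mice by 0.40, under the size asked for. The low-affinity genes resemble each other in sequence, and how well their reads were told apart was not tested. The split among FCGR2A and FCGR2B, and among FCGR3A and FCGR3B, is therefore uncertain. FCGRT, which recycles IgG, had no UMI in cluster 42 or in the other monocytes.

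Genes of adhesion and movement went both ways, 3 higher and 4 lower of 15. Itga4, the alpha chain of the integrin VLA-4, averaged 591.3 CPM in cluster 42 and 178.9 CPM in the other monocytes (1.67), and Icam1, a ligand of LFA-1, 184.0 against 80.5 CPM (1.08). The chemokine receptor Ccr1 (117.8 against 319.7 CPM, -1.51) was lower. Single genes of other lists stood out from their neighbours: Nfkbia, an inhibitor of NF-kappaB, was higher (1.31) and the early gene Fosb lower (-1.63) while the other 15 of 17 early genes were not called, and Fth1, the ferritin heavy chain, was at 5207 against 17074 CPM (-1.70).

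Markers of other cell types were sparse. The summed list of neutrophil genes was at 161 CPM in cluster 42, 81.2 to 316 CPM by mouse, and 71 CPM in the other monocytes, and Ly6g, Camp, Ngp and Retnlg had no UMI in the cluster. The dendritic cell list was at 54.1 against 46.1 CPM, with Xcr1, Cd209a and Siglech at 0, and the T cell list at 35.8 against 27.3 CPM, with Cd4, Lat, Trac and Foxp3 at 0. NK cell genes summed to 68.3 against 146 CPM and B cell genes to 91.6 against 62.0 CPM, with Eomes, Pax5 and Cd79a at 0. All these sums are far below those of the monocyte lists.

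Cells of cluster 42 gave fewer UMIs and carried less hashtag than other monocytes. They had 6869 ± 534 UMIs per cell against 9522 ± 411 in the other monocytes (means of the 6 mice's medians, SD), and mitochondrial genes gave 1.48% against 1.21% of UMIs. The mouse's own hashtag gave 1407 ± 205 UMIs per cell in cluster 42 and 3089 ± 612 in the other monocytes, and was lower in 6 of 6 mice. Its exact sign-flip permutation p was 0.03125, the smallest that 6 mice allow, and 0.0417 after adjustment over 4 such tests; UMIs of hashtags of other mice, at 143 against 133, gave an exact permutation p of 0.0938. The labels do not say whether hashtag counts entered the clustering, and the measure was chosen after its values were seen. Clusters 54, 27 and 41, at pooled medians of 1270.5, 1760 and 1798 hashtag UMIs, were also low beside the 1528 of cluster 42. With every cell thinned to 2000 UMIs, 266 genes were higher and 488 lower in cluster 42; the part of the hashtag level in the gene differences was not tested.

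**Figure D3:**
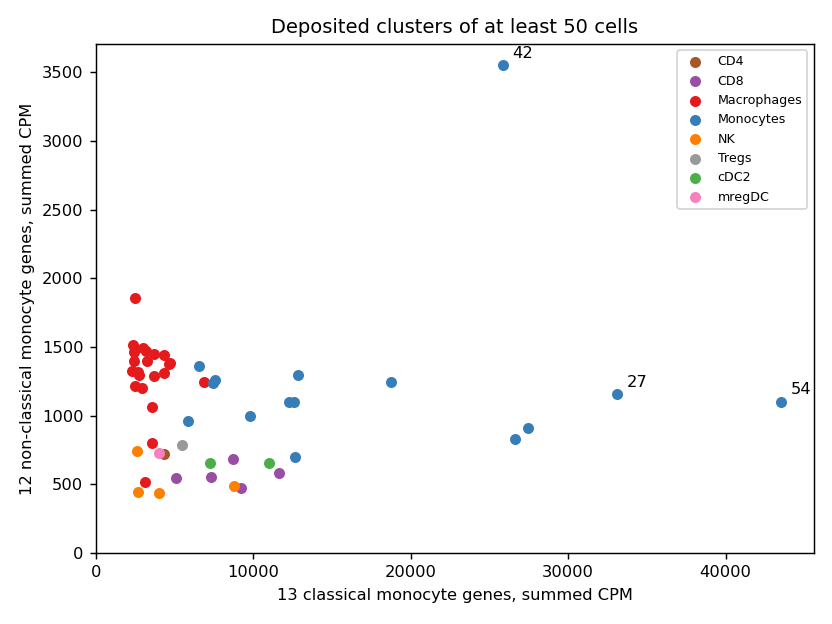
Summed CPM of non-classical and of classical monocyte genes, 1 point per deposited cluster of at least 50 cells, coloured by its cell type, cells of all mice pooled. Cluster 42 stands alone at 3552 CPM of non-classical genes, while in classical genes it, at 25879 CPM, lies below clusters 54 (43536 CPM), 27 (33124 CPM), 8 (27438 CPM) and 49 (26649 CPM).

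Clusters 54 (68 cells) and 27 (186 cells) had the profiles closest to cluster 42, with Pearson's r of 0.94 and 0.92 across 6274 genes, which share library and depth and are not replicates. Against cluster 54, 253 genes (4.14% of 6113) were higher and 61 (0.998%) lower, with as few as 7 cells in a mouse. Ace averaged 280.6 CPM in cluster 42 and 22.8 CPM in cluster 54 (3.60), Cd36 208.4 against 11.0 CPM (3.97), and Acod1, which makes itaconate, 130.6 against 8.7 CPM (3.33); Eno3 averaged 111.1 CPM and had no UMI in cluster 54. Classical genes were lower than in cluster 54: F13a1 averaged 196.8 against 831 CPM (-2.08), Chil3 858 against 1848 CPM (-1.21), and Ly6c2 1228 against 2545 CPM (-1.07). Fn1, a matrix protein of the classical list, was also lower, at 278 against 1005 CPM (-1.99). The collagenase Mmp8 had a larger difference, at 15.4 against 125 CPM (-2.97).

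Against cluster 27, 302 genes (5.11% of 5914) were higher and 207 (3.5%) lower. Hpgd averaged 149 CPM in cluster 42 and 9.5 CPM in cluster 27 (3.54), Pparg, a nuclear receptor of lipid metabolism, 132 against 9.5 CPM (3.38), and Klf2, a transcription factor of quiescence and of flow-exposed cells, 340.5 against 55.7 CPM (2.46). Ace was also lower in cluster 27, at 62.7 CPM (2.20). The low genes included several that interferons induce: Cxcl11 averaged 3.1 against 94.8 CPM (-3.71), Cxcl9 216 against 2077 CPM (-3.37), Isg15 457 against 2284 CPM (-2.36), and Il1rn, the interleukin 1 receptor antagonist, 72.6 against 626 CPM (-3.59). C1qa (0.21) and Ccr2 (-0.11) differed little between clusters 42 and 27.

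Per cell, Ace and Treml4 were seen far more often in the cluster than outside it. To compare cells of unlike depth each was thinned to 3000 UMIs, which left out 3 of the 117 cells. Ace then had a UMI in 50% of 114 cells of cluster 42 (95% exact binomial interval 40.5 to 59.5%, counting error only), in 1.49% of 2344 other monocytes, and in 0 of 901 CD8 T cells, which allows a share of up to 0.333%. Without thinning the shares were 73.5% in cluster 42, 4.01% in the other monocytes and 0.110% in the CD8 T cells, at median depths of 6842 UMIs in cluster 42, 9490 in the other monocytes and 8158 in the CD8 T cells, so the share in other monocytes lay above that in cells that should lack the gene. Treml4 had a UMI in 34.2% of cells of cluster 42, 4.22% of other monocytes and 0.111% of CD8 T cells. Other members were common in both groups, such as Gngt2, with a UMI in 82.5% of cells of cluster 42 and 56.7% of other monocytes, or rare in both, such as Cd300e, in 7.02% of cells of cluster 42 and 1.75% of other monocytes. At least 3 of the 12 non-classical genes were seen in 95 of 114 cells (83.3%), against 811 of 2344 other monocytes (34.6%); the share was 39.7% in cluster 54, 43.8% in cluster 27 and 13.4% in CD8 T cells, which themselves express some of these genes, Spn among them.

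Within the cluster, cells differed by their Ly6c2. At 3000 UMIs 32 cells had no Ly6c2 UMI, 40 had 1 to 3 and 42 had 4 or more, and all 6 mice gave cells to each band. A mouse gave 2 to 11 cells without Ly6c2 and 4 to 10 cells to each other band, so its values rest on few cells. The bands were chosen after the data were seen and cut a continuous range: 13 cells had a single UMI, 18 had 3 and 5 had 4. Ace had a UMI in 71.9% of cells with no Ly6c2, in 50% of those with 1 to 3 UMIs and in 33.3% of those with 4 or more. Treml4 (56.2, 30.0 and 21.4%), Spn (59.4, 35.0 and 21.4%), Ear2 (59.4, 17.5 and 11.9%) and Cd36 (56.2, 22.5 and 7.14%) fell off the same way. Classical genes ran opposite: Chil3 was seen in 9.38, 57.5 and 64.3% of cells, and F13a1 in 6.25, 30.0 and 47.6%. In each of the 6 mice the mean UMIs of Ace, Treml4, Spn, Ear2, Adgre4, Pou2f2 and Cd36 were higher in cells without Ly6c2 than in cells with 4 or more, and those of Chil3, F13a1, Fn1, Ccr2, Plac8 and Lyz2 were lower.

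Those bands overlap in content. The median cell showed 7 of the 12 non-classical genes without Ly6c2, 5 with 1 to 3 UMIs and 3 with 4 or more. Of the 95 cells with at least 3 non-classical genes 64 also held Ly6c2, against 18 of the 19 cells with fewer. Among cells with at least 3 such genes outside the cluster, Ly6c2 was seen in 674 of 811 other monocytes and 100 of 121 CD8 T cells. Median depth before thinning was 6102.5, 7129 and 7652.5 UMIs from the lowest to the highest band. Mean UMIs of Cx3cr1 and Hp varied in direction, Cx3cr1 being higher without Ly6c2 than with 4 or more UMIs in 3 mice and lower in 2, and Hp higher in 2 and lower in 4. H2-Ab1 was seen in 59.4, 52.5 and 35.7% of cells, beside 29.4% of CD8 T cells at the same depth.

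**Figure D4:**
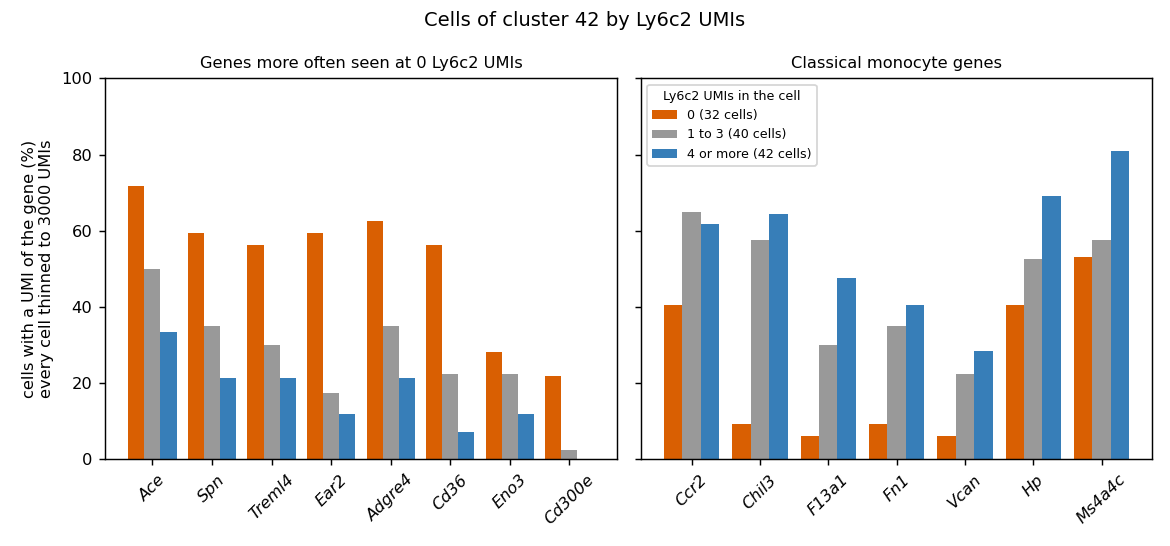
Share of cells of cluster 42 with a UMI of each gene, in cells with 0, 1 to 3, and 4 or more Ly6c2 UMIs after thinning to 3000 UMIs; bars are percentages of 32, 40 and 42 cells. Ace is at 33.3% in the highest band and F13a1 at 47.6%.

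The study asks how the Fc and the agonism of the antibodies act on tumour immune cells. As a share of a mouse's monocytes, cluster 42 made up 5.96% (95% exact interval 3.93 to 8.62%) and 5.13% (3.16 to 7.81%) in the N297A mice, 4.32% (2.38 to 7.14%) in the GA-aFuc mouse and 5.34% (3.24 to 8.21%) in the GITR/Syn GA-aFuc mouse. In the Untreated mice it made up 5.26% (3.33 to 7.86%) and 2.85% (1.64 to 4.58%). The N297A mice lay 1.49 percentage points above the Untreated mice with overlapping values, an exact two-sided permutation p of 0.667 where 2 mice against 2 can reach no less than 0.333. The antibodies with 1 mouse each had shares inside the range of the other mice. Intervals cover counting error of cells only.

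Gene levels within cluster 42 were compared with edgeR's quasi-likelihood test in 1 model of the 6 mice, with Benjamini-Hochberg adjustment over 3654 genes. The 3 comparisons share the Untreated mice, and a lone mouse given GA-aFuc or GITR/Syn GA-aFuc is assumed to vary as the pairs do. N297A had 2 higher and 0 lower genes (0.0547%), GA-aFuc 5 higher and 4 lower (0.246%), and GITR/Syn GA-aFuc 3 higher and 3 lower (0.164%). An unadjusted p under 0.05 was reached by 4.11, 8.13 and 5.86% of the genes. DESeq2 called 0, 0 and 0 genes and limma-voom 0, 2 and 1.

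The mice differed in sex-linked RNA, which the labels do not mention. In cluster 42 Xist, the RNA of the inactive X chromosome, had 96 UMIs in N297A 1, 33 in the GA-aFuc mouse and 65 in Untreated 1, and none in N297A 2, the GITR/Syn GA-aFuc mouse and Untreated 2. The Y-linked gene Ddx3y had 19, 14 and 12 UMIs in N297A 2, the GITR/Syn GA-aFuc mouse and Untreated 2, and none in the other 3 mice. The N297A and Untreated pairs therefore hold 1 mouse of each kind, while the antibodies with 1 mouse each have a single kind. With a term for the mice with Xist, chosen after the data were seen and leaving 1 residual degree of freedom, edgeR called 5, 19 and 7 genes, among them 2 of 2, 9 of 9 and 4 of 6 of those above.

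Chil3 was the gene that passed with both agonists. With the non-agonist GITR/Syn GA-aFuc its log2 change, 0.75 ± 0.26 (SE), was not called but lay close to the 0.94 with N297A. In cluster 42 Chil3 had 933.8 and 783.7 CPM in the N297A mice, 1741.4 CPM in the GA-aFuc mouse and 767.9 CPM in the GITR/Syn GA-aFuc mouse, against 379.2 and 541.6 CPM in the Untreated mice. All treated mice lay above both Untreated mice, and the counts behind the values were 190, 111, 155 and 102 UMIs against 62 and 60. The log2 change was 1.88 ± 0.25 (SE) with GA-aFuc (edgeR adjusted p = 1.01e-10) and 0.94 ± 0.21 with N297A (edgeR adjusted p = 0.0169). The GA-aFuc call held when any other mouse was left out; the N297A call was lost without N297A 1, N297A 2, GA-aFuc or Untreated 1 (adjusted p up to 0.708) or each mouse's top cell (edgeR adjusted p = 0.127). In the other monocytes Chil3 had 428.4, 234.2, 282.5 and 222.7 CPM in the treated mice, in the same order, against 232.8 and 221.7 CPM in the Untreated mice, and there it was not called. The change with GA-aFuc differed between cluster 42 and the other monocytes by 1.52 ± 0.31 (edgeR interaction adjusted p = 0.0113; 0.00847% of 11812 genes), a call lost without N297A 1 or Untreated 1.

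With GA-aFuc 4 more genes rose in cluster 42. Abtb2 had 483.1 CPM, against 61.2 and 90.3 CPM in the Untreated mice (2.64 ± 0.47, edgeR adjusted p = 2.79e-05), but 15 of its 43 UMIs came from 1 cell. Klf2 had 674.1 CPM, against 189.6 and 252.7 CPM (1.57 ± 0.35, edgeR adjusted p = 0.00552), and Acod1, the itaconate enzyme, had 269.6 CPM, against 42.8 and 54.2 CPM (2.42 ± 0.57, edgeR adjusted p = 0.00962); 17 of its 24 UMIs came from 1 cell, and without each mouse's top cell it was not called (edgeR adjusted p = 0.473). Phlpp1, a phosphatase that acts on Akt, rose by 1.81 ± 0.39. Klf2, Acod1 and Phlpp1 lost the call without Untreated 1, while Abtb2 held without any other mouse.

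The genes that fell with GA-aFuc were Fos, Hp, Lyz2 and Srgn. Fos, an early transcription factor, had 303.3 CPM, against 856.2 and 749.2 CPM in the Untreated mice (-1.47 ± 0.32, edgeR adjusted p = 0.00424), and Hp had 191.0 CPM, against 550.4 and 577.7 CPM (-1.62 ± 0.40, edgeR adjusted p = 0.0204). Both lay below every other mouse. Lyz2 and Srgn, a proteoglycan core of granules, each fell by 0.70. Fos lost the call without Untreated 1, Hp and Lyz2 without Untreated 2, and Srgn without N297A 1, N297A 2 or Untreated 2; Hp and Srgn also lost it without each mouse's top cell. Of the 13 classical genes tested, 1 (Chil3) was called higher and 2 (Hp and Lyz2) lower in this 1 mouse, whose own traits and the antibody cannot be told apart.

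Genes called with GITR/Syn GA-aFuc rested in part on single cells. Acod1 had 240.9 CPM, against 42.8 and 54.2 CPM in the Untreated mice (2.31 ± 0.54, edgeR adjusted p = 0.0163), with 10 of 32 UMIs from 1 cell, and held without each mouse's top cell (edgeR adjusted p = 0.0283). Ifit1, an interferon-induced protein that binds viral RNA, had 263.5 CPM, against 18.3 and 63.2 CPM (2.79 ± 0.56, edgeR adjusted p = 0.00124), with 24 of 35 UMIs from 1 cell. Ifit1 and Acod1 were not called with GITR/Syn GA-aFuc in the fit with a term for Xist (edgeR adjusted p = 0.209 and 0.263). Cxcl2, a neutrophil chemokine, had 775.5 CPM, against 171.2 and 45.1 CPM (2.72), but 101 of 103 UMIs came from 1 cell, and without each mouse's top cell the change is -2.17. Hivep2, a zinc finger factor, had 180.7 CPM, against 581.0 and 460.3 CPM (-1.54), and Mpp7 (-1.87) and Pxk (-3.01) also fell. All but Cxcl2 lost the call without Untreated 1.

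With N297A the other call was Areg, the growth factor amphiregulin, which had 20 and 19 UMIs in the N297A mice and none in any other mouse. Those UMIs lay in 2 cells of each N297A mouse, 12 and 18 of them in 1 cell each, and the call was lost without either mouse. None of 11 non-classical genes tested was called with N297A, GA-aFuc or GITR/Syn GA-aFuc (medians 0.27, -0.11 and 0.19, against 0.01, -0.03 and -0.03 over all genes), and none of 7 MHC class II and 5 human Fc gamma receptor genes. Over all genes only 0.0547, 0.246 and 0.164% were called, in the same order. A count of 0 in a list this short therefore cannot show a lack of response. None of 7 macrophage genes was called either, although their medians were -1.38, -1.01 and -1.61. The Untreated mice they are set against include Untreated 1 with its C1q-rich cell, whose part in these medians was not tested. Leaving that cell out takes Untreated 1 from 685.0 to 213.8 CPM of C1qa and from 4415.7 to 3876.9 CPM of Apoe. Of 25 type I interferon genes 1 (Ifit1) was called with GITR/Syn GA-aFuc, with a list median of 0.48, and none with N297A (0.17) or GA-aFuc (-0.19).

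**Figure D5:**
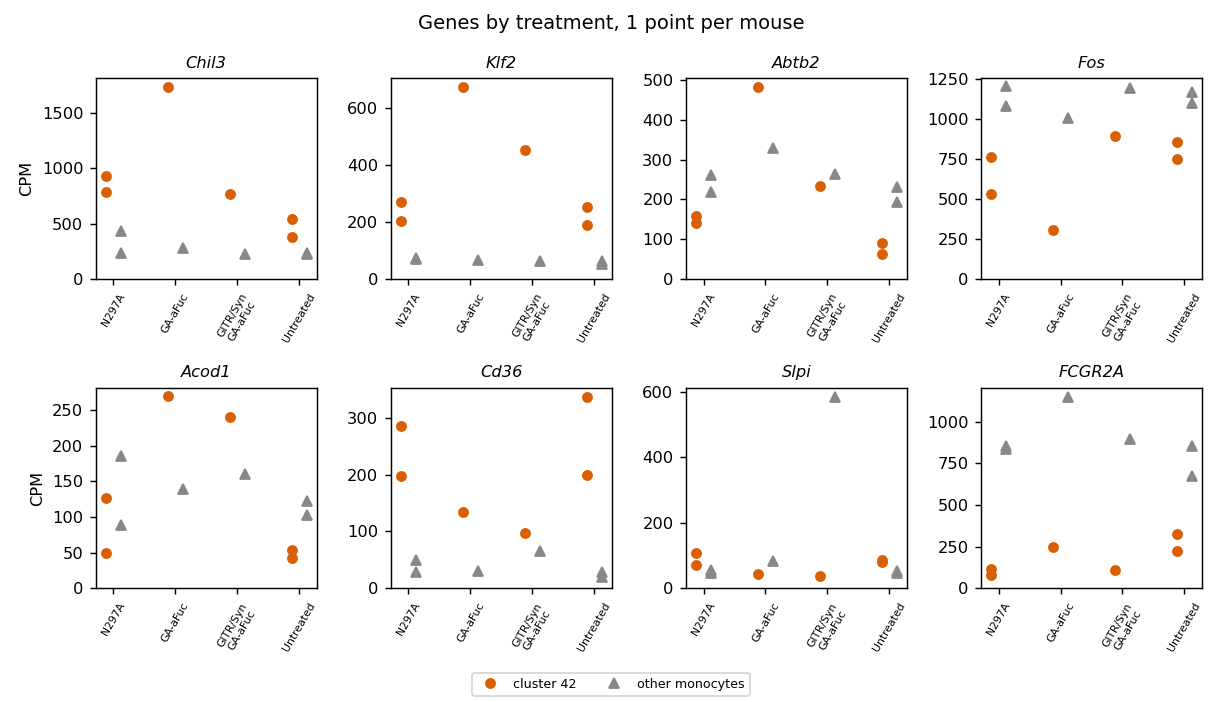
CPM by treatment for 8 genes in cluster 42 (circles) and in the other monocytes (triangles), 1 point per mouse, each gene on its own linear axis from 0. In cluster 42 Chil3 is above both Untreated values in all 4 treated mice; Slpi is high in the other monocytes of the GITR/Syn GA-aFuc mouse, at 584.8 CPM.

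Some changes with treatment differed between cluster 42 and the other monocytes, tested with the mouse as a block over 11812 genes. With N297A this held for FCGR2A alone (0.00847%), which had 118.0 and 77.7 CPM in cluster 42 of the N297A mice, against 226.3 and 324.9 CPM in the Untreated mice. In the other monocytes it had 836.9 and 851.4 CPM in the N297A mice, against 676.2 and 852.6 CPM in the Untreated mice. The difference of the changes was -1.55 ± 0.32 (edgeR adjusted p = 0.0122). Within cluster 42 FCGR2A was not called, and the call of the difference was lost without N297A 1, N297A 2, Untreated 1 or Untreated 2. The uncertain split of the low-affinity receptors applies here too.

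With GITR/Syn GA-aFuc the difference was called for 8 genes (0.0677%), and several rest on the other monocytes of that mouse. Slpi, a secreted protease inhibitor, had 37.6 CPM in cluster 42 of that mouse, against 85.6 and 81.2 CPM in the Untreated mice, while the other monocytes had 584.8 CPM, against 52.4 and 47.0 CPM. Its difference was -4.69 ± 0.68 (edgeR adjusted p = 6.01e-08), on 5 UMIs in cluster 42, and held without any other mouse. Hmox1, which breaks down haem, was likewise high in the other monocytes, at 610.1 CPM, against 40.9 and 60.5 CPM in the Untreated mice, and at 52.7 CPM in cluster 42, against 55.0 and 36.1 CPM (-3.48). Cd36 had 97.9 CPM in cluster 42, against 336.4 and 198.6 CPM, and 66.2 CPM in the other monocytes, against 19.4 and 28.4 CPM (-2.96). Ctsd (-2.65), a lysosomal protease, and Thbs1 (-1.59), a matrix protein, also differed, as did Pxk (-3.13), Ccnd1 and Serpina3g, the last with 12 of 18 UMIs from 1 cell. With a term for Xist, Slpi, Cd36 and Thbs1 held the call with GITR/Syn GA-aFuc, as did FCGR2A with N297A and Chil3 with GA-aFuc, and the other 5 genes lost it. With limma-voom 0 genes passed in each comparison, and with DESeq2 Slpi alone.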

How the data were processed

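Single-cell 3' libraries with hashtags were deposited as UMI counts per gene and cell, which the authors made with Cell Ranger 9.0.0, per the file headers; its reference held human (GRCh38) and mouse (GRCm39) genes together. The deposited cell table gave each cell's type, cluster and treatment; clustering steps are not given in the sources used here, and no doublet caller was run. Of 19210 entries, 8767 had at least 1000 mouse UMIs in the library; 33 whose top hashtag did not match the treatment and 18 repeated barcodes that stayed ambiguous were left out. A cell's mouse is its top hashtag, and 3 members carry barcodes repeated in the table. Counts were summed by mouse. Mouse genes and human FCGR genes were kept.

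Cluster 42 against other monocytes used log2(CPM + 5), without a test. Treatments were tested with edgeR 4.0.16 (TMM, low-count filter, robust quasi-likelihood); limma 3.58.1 and DESeq2 1.42.0 were alternatives. The labels mention 3 mice per treatment, while hashtags of 6 mice are used here. The exact permutation p-values take mice as units. In edgeR the spread between the mice of a pair is shared across genes, so a gene's own spread counts for little. A group of 1 mouse has no spread of its own. All mice were read in 1 library. Genes named by rule are the 15 highest and 15 lowest called genes, up to 4 members with the largest difference per list (every member of lists of 8 or fewer), and up to 8 called genes per direction and treatment; others were chosen after their values were seen, and some list members are not reported here. Members and lists were chosen with earlier results of these data known. Scripts were tested on simulated data.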

Additional observations from a re-analysis of the deposited data

Results flagged for a closer look

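In 36 groups of 6 mice checked for a value far from the others, 5 stood apart; chance alone gives about 1 in 20. C1qa and C1qb differed least in Untreated 1, at -1.55 and -1.49 log2, against -4.69 to -3.74 and -4.43 to -3.77 in the other 5 mice, the mouse with the 1 cell rich in C1q. Mmp14, a membrane metalloproteinase, was lowest in the GITR/Syn GA-aFuc mouse, at -5.25, where cluster 42 had 0 CPM. Heg1, a receptor of endothelial and other cells, was least raised in the GA-aFuc mouse, at 2.54. The other monocytes of the GA-aFuc mouse had the highest median depth, 10311 UMIs per cell.

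The change with treatment differed between cluster 42 and the other monocytes for 10 genes by the interaction test described above: FCGR2A (-1.55) with N297A, Chil3 (1.52) with GA-aFuc, and Slpi (-4.69), Cd36 (-2.96), Ctsd (-2.65), Thbs1 (-1.59), Ccnd1 (-10.5), Hmox1 (-3.48), Serpina3g (3.56) and Pxk (-3.13) with GITR/Syn GA-aFuc. The cyclin gene Ccnd1 had 0 UMIs in cluster 42 of the GITR/Syn GA-aFuc mouse, and 16 of its 20 UMIs in Untreated 1 came from 1 cell, so its fitted value is no measure of size. Ccnd1, Cd36, Ctsd, Hmox1 and Serpina3g lost the call without Untreated 1, Thbs1 without Untreated 2, and Pxk without N297A 1, N297A 2 or Untreated 1.

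Entries of the cell table outside the library, which carry a treatment but no mouse, give cluster 42 as a share of monocytes too. It was 3.56% with N297A (23 of 646, exact 95% interval 2.27 to 5.29%), 5.93% with GA-aFuc (54 of 911, 4.48 to 7.66%) and 4.37% with GITR/Syn GA-aFuc (47 of 1075, 3.23 to 5.77%), against 2.29% in Untreated (11 of 481, 1.15 to 4.05%). Intervals cover counting error only; with mice pooled no test between treatments was possible.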

How the results depend on the processing

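The counts of genes higher in cluster 42 stayed within 1.5 times of 390 under every alternative run, and were 396 to 411 with a mouse left out. The 461 lower genes became 276 with 20 CPM added, 287 with a minimum of 50 CPM, 700 with no minimum and 281 with each other cluster given equal weight, and 477 to 535 with a mouse left out. With a mouse left out the rule asks for the same sign in fewer mice, so it is looser and those counts are no like-for-like check. Thinned to 2000 UMIs, 9 of the named genes lost the call, Chil3, Ear2, Serpinb10 and Tlr7 among the higher ones.

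Within cluster 42, the calls with N297A, with GA-aFuc and with GITR/Syn GA-aFuc were 0, 0 and 0 with DESeq2, 0, 2 and 1 with limma-voom, and 1, 5 and 0 without the 5% of monocytes with the most UMIs; with no low-count filter GITR/Syn GA-aFuc had 3, and without each gene's top cell, chosen after seeing the data, N297A had 0 and Cxcl2 reversed to -2.17. With a term for the mice with Xist, also chosen after seeing the data, the counts were 5, 19 and 7, and those of differences from the other monocytes 6, 9 and 5. With a mouse left out the calls ranged over 0 to 9, 8 to 13 and 1 to 20: N297A had 0 without N297A 1, 1 without N297A 2 or GA-aFuc, 7 without Untreated 1 and 9 without Untreated 2, and GITR/Syn GA-aFuc 1 without Untreated 1 and 20 without Untreated 2. Differences from the other monocytes were 0, 0 and 0 with limma-voom and 0, 0 and 1 with DESeq2, and ranged over 0 to 10, 1 to 10 and 4 to 15: N297A had 0 without either N297A mouse, 6 without Untreated 1 and 10 without Untreated 2, GA-aFuc 2 without N297A 2, 9 without Untreated 1 and 10 without Untreated 2, and GITR/Syn GA-aFuc 4 and 15 without those. The cause was not tested. The share difference was 0.283 to 2.70 points. No paired analysis was possible because the labels give the treatment groups no shared replicate numbers.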
